A study of Homo sapiens with 2 samples.

Results

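The aldo-keto reductases of A549 cells were described from a digital gene expression experiment in which SOX2 was the target of a hairpin RNA. The family was taken as 8 genes chosen by symbol, AKR1A1, AKR1B1, AKR1B10, AKR1C1, AKR1C2, AKR1C3, AKR7A2 and AKR7A3, and 6 of the 8 were found among the 13137 genes of the deposited table. AKR1C1 and AKR7A3 were not analysed here, so every statement below on the family covers the other 6 genes. A549 is a human lung adenocarcinoma cell line. A polyclonal A549 population carrying the doxycycline-inducible H1TetO-shRNA-SOX2 hairpin was compared with a population carrying the scrambled H1TetO-shRNA-Con hairpin, and both received doxycycline for 4 days. In this method a short tag of each captured mRNA is counted, and 1 library was made per condition, so that no spread between cultures could be measured. Column names give the libraries only as SC and S1, of which SC was taken for shRNA-Con by its initials and S1 for the remaining library, shRNA-SOX2.

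Aldo-keto reductases are cytosolic enzymes that use NADPH to reduce the carbonyl group of aldehydes and ketones to an alcohol. Their substrates include sugars, retinal, lipid aldehydes, steroids, prostaglandins and drugs such as anthracyclines. A549 cells carry a defective KEAP1, the repressor of the transcription factor NRF2, and are known for high levels of several of these enzymes, since AKR1B10 and the AKR1C genes are NRF2 targets.

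The library labelled shRNA-Con held 2304184 tags on genes, and the library labelled shRNA-SOX2 held 2093816. SOX2, the target of the hairpin, was read 16 times in shRNA-Con and 23 times in the library labelled shRNA-SOX2. The ratio was 1.58 with a 95% interval from 0.80 to 3.20 (adjusted p = 0.333, Fisher's exact test). Thus the tags do not show less SOX2 mRNA in the library that carries its label, and the label is used as a name only. The keratin genes KRT8, KRT18 and KRT7, which mark epithelial cells, had between 1606 and 12729 tags in each library, whereas EPCAM had 8 and 4. Of the other epithelial markers listed, KRT19 had 35 tags in shRNA-Con and 127 with the shRNA-SOX2 label. CDH1 had 50 in each. Of 9 markers of leukocytes, endothelium and fibroblasts, 5 were in the table, and 4 of these had at most 5 tags in either library. COL1A1, the exception, had 44 and 43.

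The members differ in how well a short tag can tell them apart. The coding sequences of AKR1C2 and AKR1C3 were 91.0% identical in the GENCODE release 29 annotation of GRCh38, and that of AKR1C2 was 98.0% identical to AKR1C1. AKR1B1 and AKR1B10 shared 75.8% of their coding bases, and AKR1A1 and AKR7A2 shared 45.2%. The enzyme that cut the cDNA is not given in the sources used here. Of 101 protein-coding genes whose annotated transcripts hold no CATG, 4.95% were listed in the deposited table, against 65.5% of the 19180 genes with that site. For GATC, the other anchor commonly used, the shares were 23.6% without and 65.8% with the site. The last CATG of the longest coding transcript and the 17 bases after it were therefore read for each member, and these 21 bases are shown because the count of each gene would rest on them. The capitals mark the CATG.
AKR1C2: CATGtatttttgaaattttgg
AKR1C3: CATGgagggctttgcctgatg
AKR1B1: CATGaagagttttgaagctgt
AKR1B10: CATGgcttgaataaggaaatg
AKR1A1: CATGgcgtgatcctgatgagc
AKR7A2: CATGcattatttttctagctt

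On GRCh38 the AKR1C2 stretch lies in the 3′ UTR at chr10:4987769-4987789 on the minus strand, and the AKR1C3 stretch lies in the 3′ UTR at chr10:5107504-5107524 on the plus strand. That of AKR1B1 spans the stop codon at chr7:134442722-134442742 on the minus strand. AKR1B10 has it in the 3′ UTR at chr7:134541285-134541305 on the plus strand. For AKR1A1 it is coding sequence at chr1:45568588-45568608 on the plus strand, and for AKR7A2 it is 3′ UTR at chr1:19304091-19304111 on the minus strand. Among all annotated transcripts, the stretches of AKR1C3, AKR1B1, AKR1B10, AKR1A1 and AKR7A2 each followed a CATG in 1 gene only. The AKR1C2 stretch occurred in 2 genes, AKR1C2 and AKR1C1. The same held for the last stretch of a shorter AKR1C2 transcript of 1481 bases, which is shown for that reason.
AKR1C2, shorter transcript: CATGggctccctccagcagtg

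The last stretch of another AKR1C2 transcript, of 1098 bases, was found in AKR1C2 alone. The single value of AKR1C2 is uncertain, because it depends on how the authors assigned tags shared with AKR1C1. The AKR1B15 stretch differs from that of AKR1B10 at 2 positions, T7C and G16C, with the base of AKR1B10 first and positions counted from the C of CATG.
AKR1B15: CATGgcctgaataagcaaatg

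Relative to all gene tags, 5 of the 6 enzymes were lower with the shRNA-SOX2 label than in shRNA-Con by Fisher's exact test. AKR1C2 and AKR1C3 had the lowest ratios, and AKR7A2 did not pass the test. At FDR 0.001 the same test called 12.2% of all 13137 genes lower. Of the 693 genes whose summed count reached 1000, it called 37.4% lower. AKR1B1, AKR1B10, AKR1C2 and AKR1C3 belong to this deeply counted class, so the count of members called is not by itself a family effect. Levels are given as counts per 1000000 tags on genes (CPM) and were compared between genes without division by length, since each mRNA gives 1 tag. Together the 6 genes made up 0.629% of all gene tags in shRNA-Con (95% Clopper-Pearson interval 0.619% to 0.639%), against 0.437% for the library labelled shRNA-SOX2 (0.428% to 0.446%). The family level was thus 1.44-fold lower, with an interval of the ratio from 0.676 to 0.713. These intervals cover counting error only, and tags amplified by PCR are not independent molecules. In bulk RNA, fewer cells that express a gene cannot be told apart from less of its mRNA per cell.

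**Figure D1:**
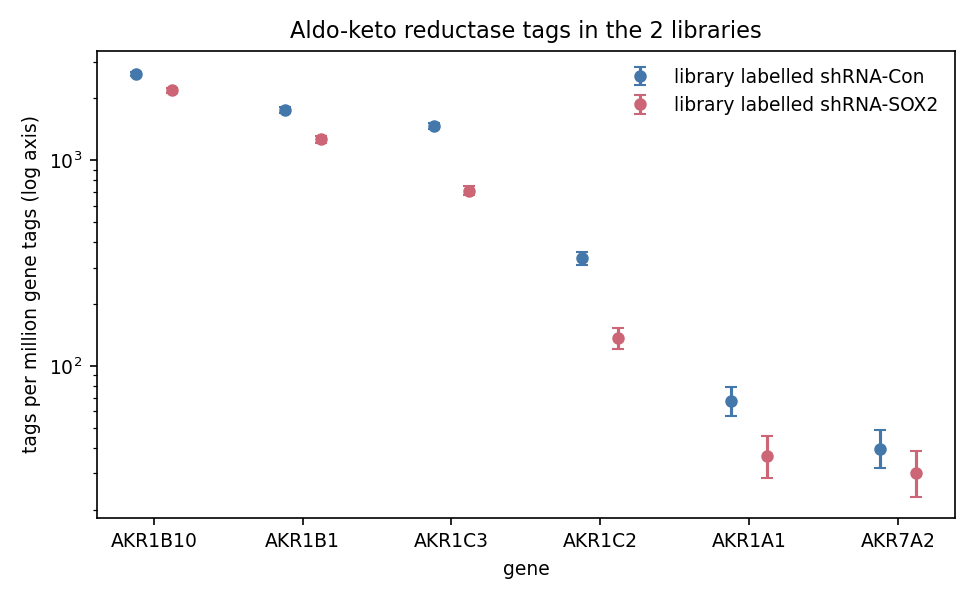
CPM, tags per 1000000 gene tags (log axis), of the 6 aldo-keto reductases in the libraries labelled shRNA-Con (blue) and shRNA-SOX2 (red), with 1 library each. Bars are 95% Clopper-Pearson intervals from counting error, and the intervals of the libraries overlap for AKR7A2 alone.

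AKR1C3, which makes testosterone from androstenedione and also forms prostaglandin F, was represented by 3385 tags in shRNA-Con and by 1492 in the library labelled shRNA-SOX2. Its level was 1469 CPM (95% interval 1420 to 1519) against 713 (677 to 750). The log2 fold change, for which shRNA-Con is the denominator and gene tags set the scale, was -1.04, and the interval of the ratio ran from 0.456 to 0.516 (adjusted p = 7.19e-127, Fisher's exact test). By tags AKR1C3 ranked 82 of all genes in shRNA-Con, against 166.

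AKR1C2, which inactivates dihydrotestosterone and binds bile acids, had 770 and 286 tags, where the first value of a pair is that of shRNA-Con in every such pair. This corresponds to 334 CPM (311 to 359) against 137 (121 to 153) and a log2 fold change of -1.29, with a ratio interval of 0.356 to 0.469 (adjusted p = 1.49e-40, Fisher's exact test). Its rank went from 425 to 1290. The sum of AKR1C2 and AKR1C3 went from 4155 in shRNA-Con to 1778 in the library labelled shRNA-SOX2. The log2 fold change was -1.09, with a ratio interval of 0.445 to 0.498. Tags given to AKR1C1 are outside this sum, so it does not settle how tags were shared between AKR1C1 and AKR1C2.

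AKR1B10, a retinal reductase that is scarce in normal lung, was the most abundant of the 6 in both libraries. Its tags numbered 6039 in shRNA-Con and 4581 with the shRNA-SOX2 label, or 2621 CPM (2555 to 2688) against 2188 (2125 to 2252). The log2 fold change was -0.26 (adjusted p = 5.43e-19, Fisher's exact test). AKR1B10 thus had the smallest difference and the most tags of the 6 genes, and it ranked 32 and 38 among all genes.

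AKR1B1, the aldose reductase that turns glucose into sorbitol, had 4052 and 2647 tags, a level of 1759 CPM (1705 to 1813) against 1264 (1217 to 1313). Its log2 fold change was -0.48 (adjusted p = 8.19e-39, Fisher's exact test). The interval of the ratio was 0.684 to 0.755, so the intervals of AKR1B1 and of AKR1B10, at 0.803 to 0.868, lay apart from each other and from those of the AKR1C genes.

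The remaining members were scarce. AKR1A1, the general aldehyde reductase, went from 155 tags in shRNA-Con to 76 in the library labelled shRNA-SOX2. Its log2 fold change was -0.89, with a ratio interval of 0.405 to 0.714 (adjusted p = 4.13e-05, Fisher's exact test). AKR7A2, which reduces succinic semialdehyde and aflatoxin dialdehyde, had 91 and 63 tags and a log2 fold change near that of AKR1B1, -0.39 (adjusted p = 0.204, Fisher's exact test). Its ratio interval, 0.544 to 1.06, holds 1, so that no difference was detectable for AKR7A2 at this depth.

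Past FDR 0.001, the threshold of the study, were 5 of the 6 members, all in the direction of less in the library labelled shRNA-SOX2. Of all 13137 genes, 12.2% were called lower at this threshold. The test compares the libraries and not the conditions, and its power follows the number of tags. Among the 693 genes for which both libraries sum to at least 1000 tags, which include AKR1B10, AKR1B1, AKR1C3 and AKR1C2, 37.4% were called lower. At least 2-fold lower were 2 of the 6 members, AKR1C2 and AKR1C3, and over the 10045 genes with at least 20 tags 13.0% were. Genes with at least 1000 tags were at least 2-fold lower in 65 cases (9.38%). The median log2 fold change of the 6 members was -0.68, against -0.10 over the 10045 genes. With AKR1C2 and AKR1C3 summed to 1 value, the median of the members was -0.48. AKR1C2 had 7.71% of those genes below its own log2 fold change, AKR1C3 had 12.2%, AKR1A1 15.8%, AKR1B1 31.4%, AKR7A2 35.4% and AKR1B10 42.0%. Hence the AKR1B genes and AKR7A2 lay well within the range that most genes spanned.

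Fisher's exact test takes the spread between cultures as 0. When edgeR's exact test was given a coefficient of variation of 0.1 between cultures, AKR1C2 and AKR1C3 were past FDR 0.001 and the other 4 members were not, and with 0.2 none of the 6 was. AKR1C3 was 2.06-fold lower with gene tags, and its log2 fold change was -0.97 with TMM factors, which is short of 2-fold. The 3 other scalings tried moved the median of all genes by between -0.11 and 0.07 on the log2 scale, and the log2 fold changes of all 6 members remained below 0 with each. AKR7A2 did not pass the test with any of them. Of the 2849 genes called, 56.1% were lower by gene tags. TMM factors gave 49.4% of their calls as lower, and clean tags of the whole library 66.6%.

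The ratio of one member to another within a library needs no scaling factor, so it shows whether the members moved by the same amount. In shRNA-Con there were 1.78 tags of AKR1B10 for each tag of AKR1C3, and in the library labelled shRNA-SOX2 there were 3.07. The change of this ratio was 1.72-fold (95% interval from counting error 1.60 to 1.85). For AKR1B1 over AKR1C3 the ratio went from 1.20 to 1.77. The summed AKR1C2 and AKR1C3 tags made up 0.412 of the summed AKR1B1 and AKR1B10 tags in shRNA-Con, against 0.246, a change of 0.597 (0.561 to 0.636). The AKR1C genes were thus lower than the AKR1B genes by more than counting error.

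Within the subfamilies the changes were smaller. AKR1C2 over AKR1C3 went from 0.227 to 0.192, a change of 0.843 (0.726 to 0.978). AKR1B1 over AKR1B10 went from 0.671 to 0.578, a change of 0.861 (0.809 to 0.916). Of the 15 pairs of members, 10 had an interval that did not hold 1. Of the 5 that held 1, 3 involved AKR7A2 and 3 involved AKR1A1, which are the members with the fewest tags. The intervals cover counting error only and were not adjusted for the number of pairs. Pairs of other genes were not counted for comparison. Pairs with AKR1C2 also rest on a value that depends on tags shared with AKR1C1.

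As a result the make-up of the family differed between the libraries. AKR1B10 made up 41.7% of the tags of the 6 genes in shRNA-Con, and this share was 50.1% in the library labelled shRNA-SOX2. The share of AKR1C3 was 23.4% and 16.3%, and that of AKR1C2 was 5.31% and 3.13%. AKR1B1 had a share of 28% and 28.9%. AKR1A1 and AKR7A2 together stayed below the share of AKR1C2 in both.

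**Figure D2:**
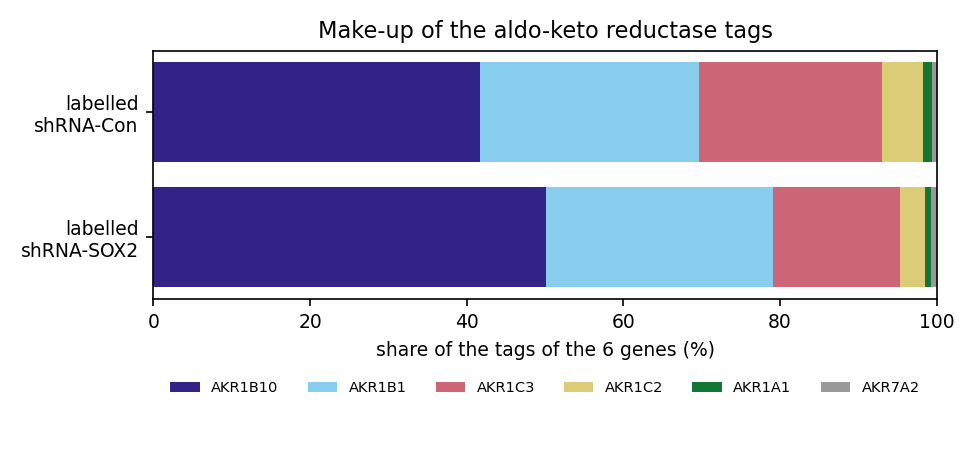
Share (%) of each gene in the tags of the 6 aldo-keto reductases in the libraries labelled shRNA-Con and shRNA-SOX2. AKR1B10 takes 41.7% and 50.1%, and AKR1C3 takes 23.4% and 16.3%.

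Apart from AKR1A1, the members lie next to other genes of the family on the genome. Of the neighbours outside the 6 members, AKR1C1 and AKR7A3 were not analysed here, and those in the table had few tags. On chromosome 10 of GRCh38, AKR1C2 (4987400 to 5018031) and AKR1C3 (5035354 to 5107686) are followed by AKR1C4 (5195462 to 5218949), a liver enzyme of bile acid synthesis. AKR1C4 was read 4 times in shRNA-Con and 18 times in the library labelled shRNA-SOX2. The ratio of 4.95 (1.63 to 20.1) did not pass the threshold (adjusted p = 0.00713, Fisher's exact test). On chromosome 7, AKR1B1 (134442350 to 134459284) and AKR1B10 (134527592 to 134541408) are followed by AKR1B15 (134549136 to 134579875), with 7 and 2 tags. AKR7L, next to the AKR7A genes on chromosome 1, had 2 tags in each. The last CATG stretch of AKR7L occurred in 3 genes, AKR7A2, AKR7A3 and AKR7L, so its count depends on how shared tags were assigned. AKR1E2, which reduces anhydrofructose, was at 9 tags in shRNA-Con and at 0 in the other library. For the log2 fold change this 0 was set to 3 tags, or 1.43 CPM, which is a floor and not a measured limit. KCNAB2 and KCNAB3, potassium channel subunits of the superfamily, had 8 and 4 tags and 6 and 4 tags. Of the 12 further superfamily genes listed, 6 were in the table and none of these 6 was past FDR 0.001 (0 of 6). Of all genes 12.2% were called lower and 9.53% higher. These 6 had between 4 and 22 tags in the libraries together, where the test has little power, so the count is no contrast with the members.

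The promoters were searched for the letters of known elements in the 250 bases before each RefSeq start site (GRCh38.p14), on both strands. Of the 6 members, 5 matched the promoter table, with 8 start sites in all, and AKR1B10 did not. The core of the antioxidant response element, through which NRF2 acts, was searched as TGACNNNGC. It was found before AKR7A2 alone, with matches on both strands, and 10.9% of the 35116 promoter windows hold it. Elements outside these 250 bases were not searched, so the absence of a match covers the window only. ACAATG, the core that SOX proteins bind, was found before AKR1A1 and before 1 of the start sites of AKR1C3. Of all windows, 9.29% hold it. Both shares count single windows, whereas AKR1B1, AKR1C3 and AKR7A2 have more than 1 start site, so they are no direct measure for genes. The matches are of letters and are not sites shown to be bound.

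The enzymes and regulators around the family were read from lists of gene symbols. The NRF2 pathway list held 24 genes, all in the table, of which 12 were called lower and 5 higher in the library labelled shRNA-SOX2. Of all genes 12.2% were called lower and 9.53% higher, and these shares depend on the number of tags. Its median log2 fold change was -0.14 over the 23 genes with at least 20 tags, against the -0.10 of all genes. NFE2L2, which encodes NRF2, had 225 and 100 tags (log2 fold change -1.03, adjusted p = 8.05e-09, Fisher's exact test). MAFK, a small MAF protein that pairs with NRF2, had 654 and 235 tags (log2 fold change -1.34). KEAP1, at 255 and 296 tags, did not pass the threshold (adjusted p = 0.0139, Fisher's exact test). ABCC3, a drug efflux pump, and GSR, the glutathione reductase, were called lower with log2 fold changes of -0.85 and -0.81.

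The 5 genes of this list called higher are named after their values were seen. They were NQO1, a quinone reductase, with 4179 and 6200 tags, HMOX1, the heme oxygenase, with 3437 and 5039, EPHX1, PRDX1 and UGDH. Their log2 fold changes lay between 0.30 for UGDH and 0.71 for NQO1. NFE2L2 was called lower, as were 5 of the aldo-keto reductases. The list went both ways, with 12 of its 24 genes called lower and these 5 higher. A part of NFE2L2 in the values of the family was not tested.

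The carbonyl and retinal reductases of the short-chain dehydrogenase family, which reduce many of the same substrates, had 3 of 18 genes called higher and 1 called lower, beside 9.53% and 12.2% of all genes. CBR3, a carbonyl reductase, had 12 and 38 tags (log2 fold change 1.80, adjusted p = 0.000277, Fisher's exact test), and DHRS7 had 243 and 469 (1.09). RDH13, with 16 and 41 tags, and DHRS2, with 9 and 21, did not pass the threshold. RDH10, which makes retinal from retinol, was the 1 gene called lower, with 99 and 47 tags, and DCXR, a xylulose reductase, was the remaining gene called higher, with 216 and 343. RDH10 and DCXR, as well as HSD17B4, PGD and ME1, are named after their values were seen. The median of the list was 0.23.

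Among the steroid dehydrogenases and reductases, 3 of 13 genes were called higher and 1 lower, beside 9.53% and 12.2% of all genes. SRD5A3, a polyprenol reductase, had 56 and 122 tags (log2 fold change 1.26), and HSD17B12, which elongates fatty acids, had 365 and 512 (0.63). HSD17B4, of peroxisomal fatty acid oxidation, was also called higher, with 164 and 230 tags. HSD17B10, a mitochondrial enzyme, had 162 and 75 tags and a log2 fold change of -0.97. HSD3B7, at 18 and 43 tags, did not pass the threshold. The median of this list was 0.10.

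The genes that supply NADPH had 4 of 15 members called lower and 2 higher, beside 12.2% and 9.53% of all genes. PGLS, of the pentose phosphate pathway, had 241 and 83 tags (log2 fold change -1.40), ME2 had 157 and 61 (-1.23) and NADK, the NAD kinase, had 111 and 45 (-1.16). PGD, also of the pentose phosphate pathway, was called lower with 3374 and 2483 tags. IDH1, with 177 and 263 tags, and ME1, the cytosolic malic enzyme, with 535 and 654, were called higher (0.71 and 0.43). The median of this list was 0.11. Of the polyol and fructose genes 4 were in the table and 0 of these 4 passed the threshold. SORD, which oxidizes the sorbitol made by AKR1B1, had 67 and 96 tags (log2 fold change 0.66, adjusted p = 0.0150, Fisher's exact test). KHK, the ketohexokinase, had 21 and 22 tags, and ALDOA, an aldolase, had 1409 and 1253.

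**Figure D3:**
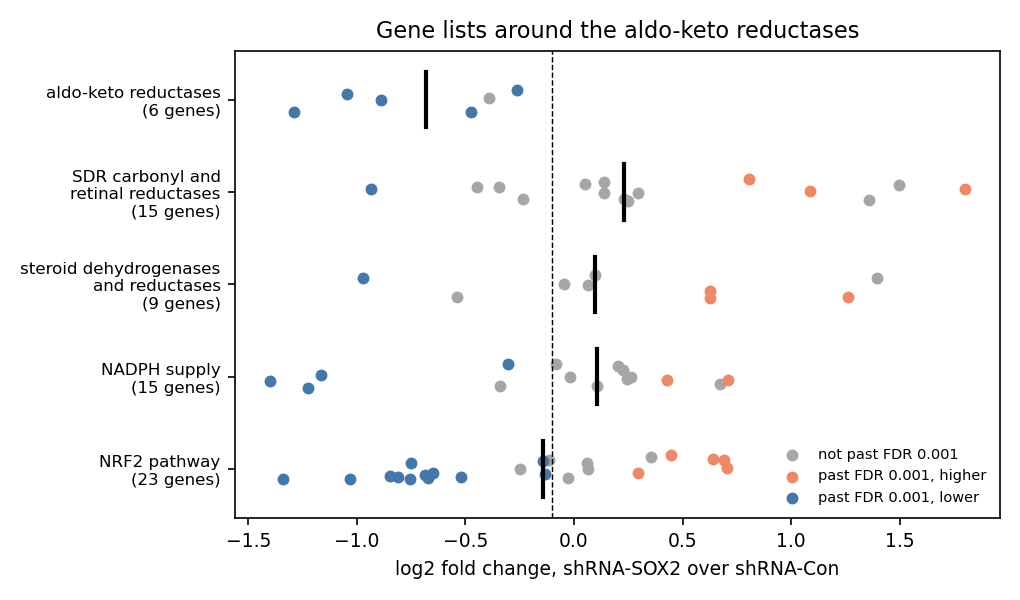
Log2 fold change, shRNA-SOX2 over shRNA-Con, of the genes with at least 20 tags among the aldo-keto reductases and 4 further lists, 1 point per gene, coloured by whether Fisher's exact test passed FDR 0.001. Black bars are list medians, from -0.68 for the 6 aldo-keto reductases to 0.23 for the short-chain carbonyl and retinal reductases (SDR), and the dashed line is the median of all genes, -0.10.

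In the Gene Ontology annotation that the table carries, the function text of all 6 members holds the words oxidoreductase activity, alone or within a longer term. The 374 genes whose function text holds these words had 68 genes called higher (18.2%) and 44 called lower (11.8%). Of all genes 9.53% were called higher and 12.2% lower. The median log2 fold change of these oxidoreductases was 0.09, over the 306 with at least 20 tags. The words aldo-keto reductase activity occur for 5 genes, among them AKR1C3, AKR1B10, AKR1C4 and SPR, with 2 called lower and 1 higher. SPR was the gene called higher, with 299 and 395 tags (log2 fold change 0.54), and the median of the 5 was -0.14. AKR1C4, at 4 and 18 tags, did not pass the threshold. The words aldehyde reductase activity occur for AKR1A1, AKR1B1 and AKR7A2. The median of the oxidoreductases thus lay above that of all genes, and the median of the 6 aldo-keto reductases lay below it.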

How the data were processed

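Libraries were made by the authors from oligo(dT)-purified mRNA (4 µg total RNA, TRIzol) of A549 cells at the Beijing Genomics Institute. The authors deposited tag counts per Entrez Gene ID, not normalized, and TPM, counts scaled to 1000000 clean tags, in which 0 tags are written as 0.01. The submitters' processing notes name hg19. Aligner, tag enzyme and the rule for shared tags are not given in the sources used here. The deposited log2 ratio, p-value and FDR columns were not used.

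Log2 fold changes were computed from tags over total gene tags, with counts under 3 set to 3. Genes were tested with Fisher's exact test (two-sided) and Benjamini-Hochberg adjustment over all 13137 genes, at FDR 0.001. The edgeR quasi-likelihood test needs replicates and could not be fitted. Rows with no symbol held at most 0.0535% of gene tags and stayed in the table. Clean tags, 3516266 for shRNA-Con and 3456234 for shRNA-SOX2, were recovered from count over TPM. Intervals of ratios are conditional Clopper-Pearson at 95%, and those of ratios between members use the log of the ratio. The planned AKR1C sum holds AKR1C2 and AKR1C3 only. Alternatives were other scalings, tests, thresholds and assumed spreads.

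The genes named were all members, SOX2, NFE2L2, KEAP1, SORD, the 4 largest log2 fold changes of each list with at least 20 tags, and the 3 genes with at least 1000 tags nearest in change to the AKR1C sum. A result under this rule is not reported here. Members and lists were chosen with earlier results of these data known. The search for CATG and promoter letters and the class of genes with at least 1000 tags were added after the values were seen. Steps were tested on simulated data. Python 3.11.15, scipy 1.17.1, Biopython 1.88, R 4.3.3, edgeR 4.0.16 and DESeq2 1.42.0 (size factors) were used.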

Additional observations from a re-analysis of the deposited data

How the results depend on the processing

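No paired analysis was possible because a single library stands for either condition, and no library could be left out. When edgeR's exact test was given a coefficient of variation of 0.1 between cultures, 2 members and 1166 genes were past FDR 0.001. With 0.2 these were 0 members and 113 genes, and with 0.4 they were 0 members and 0 genes. At an unadjusted p under 0.05, 4 members and 4310 genes passed with 0.1, 2 members (AKR1C2 and AKR1C3) and 2481 genes with 0.2, and 0 members and 627 genes with 0.4. These losses follow from the assumed spread, which the libraries cannot measure. With FDR 0.05 the genes numbered 4902, and the members stayed at 5. When at least 2-fold was also required, 2 members and 1570 genes were left. With TMM factors and with the median ratio, 1 member was at least 2-fold lower, since AKR1C3 then had a log2 fold change of -0.97, and with clean tags there were 3. The summed AKR1C2 and AKR1C3 tags had a log2 fold change of -1.20 with clean tags. As a share of clean tags the 6 members took 0.412% for shRNA-Con and 0.265% for the library labelled shRNA-SOX2. The 3 scalings changed the call of none of the 6 members. The settings that assume a spread change the test and not the fold change, and AKR7A2 passed in none of the settings, as in the test reported. Depth limited AKR7A2, with 91 and 63 tags, for which a ratio up to 1.06 was within counting error.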

Other observations

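Among 689 other genes with at least 1000 tags, those with a log2 fold change near the -1.09 of the summed AKR1C2 and AKR1C3 tags included TNPO1, a nuclear import receptor, and YBX1, an RNA-binding protein. TNPO1 had 1259 and 541 tags and YBX1 had 2846 and 1224, with a log2 fold change of -1.08 for both. Likeness here is closeness of 1 ratio between 2 libraries.

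Of the genes whose function text holds the words oxidoreductase activity, those with the largest log2 fold changes were not aldo-keto reductases. ALDH1L2, a mitochondrial folate enzyme, went from 51 tags in shRNA-Con to 3 in the library labelled shRNA-SOX2, and PHGDH, the first enzyme of serine synthesis, had 266 and 34. PTGS1, a cyclooxygenase that supplies the prostaglandins on which AKR1C3 acts, had 0 and 29 tags. All 3 were past FDR 0.001 (Fisher's exact test), and BCMO1, the carotene oxygenase that makes retinal, with 3 and 17 tags, was not.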
